A study of Mus musculus with 6 samples.

Results

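The 10 genes described here are immediate early genes of the AP-1 and EGR families and close companions: Fos, Fosb, Jun, Junb, Jund, Egr1, Egr2, Ier2, Atf3 and Dusp1. They were chosen by name as genes that handling of cells can raise, and each is represented by its brightest probe set with a single gene symbol, so they are 10 of the 22180 genes measured. All 10 were found. LSK cells, the lineage-negative, Sca-1 positive, c-Kit high fraction of bone marrow that holds haematopoietic stem cells and multipotent progenitors, were sorted from 8-week-old male mice and their RNA was hybridised to Affymetrix Mouse GeneChip 2.0 ST Arrays. The 3 arrays labelled CTCFcKO came from mice with a tamoxifen-inducible conditional knockout of Ctcf, which encodes a DNA-binding protein of insulators and chromatin loop anchors, and the 3 labelled WT came from mice given as WT in the labels. All mice had tamoxifen by injection, 2 mg daily over 3 days, and marrow was collected 24 hours after the final dose. The labels do not say whether the WT mice carried the CreER recombinase, although the design text names CreER mice, nor what drives it, nor whether animals were pooled. They also give no sort order, staining time or scan date for single arrays, so none of these could be set beside the values.

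Immediate early genes are transcribed within minutes of a growth factor, cytokine, stress or mechanical stimulus, without new protein synthesis, through kinases that act on factors already bound at their promoters. FOS and JUN proteins pair into AP-1, which binds DNA at sites of its own, EGR proteins are zinc finger transcription factors, and DUSP1 removes phosphate from MAP kinases and so limits the signal that induced it. In blood stem and progenitor cells they are known as readouts of cytokine signalling, and they also respond to warming, digestion and sorting of cells.

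The stretches just before the start sites in RefSeq's windows are shown for the 7 genes with a single start there. The 6 that shared an order of arrays, Fos, Fosb, Jun, Junb, Jund and Dusp1, can so be set beside Atf3, which did not follow it. The stretches were read from windows of build GRCm38.p6, 200 bases each, 5′ to 3′ on the gene's strand. Capitals mark the motifs found. The Fosb gene record, on the minus strand, ends at 19310118, within the printed stretch, so the motifs marked for Fosb lie inside that record.
Fos, chr12:85473690-85473889, plus strand: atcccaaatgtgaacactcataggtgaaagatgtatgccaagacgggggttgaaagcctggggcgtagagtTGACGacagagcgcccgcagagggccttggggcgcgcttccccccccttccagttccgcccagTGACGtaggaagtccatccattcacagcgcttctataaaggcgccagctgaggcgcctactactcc
Fosb, chr7:19310046-19310245, minus strand: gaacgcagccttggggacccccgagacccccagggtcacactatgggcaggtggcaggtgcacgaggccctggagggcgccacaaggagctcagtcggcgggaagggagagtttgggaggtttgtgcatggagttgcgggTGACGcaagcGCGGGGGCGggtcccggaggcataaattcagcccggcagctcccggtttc
Jun, chr4:95052223-95052422, minus strand: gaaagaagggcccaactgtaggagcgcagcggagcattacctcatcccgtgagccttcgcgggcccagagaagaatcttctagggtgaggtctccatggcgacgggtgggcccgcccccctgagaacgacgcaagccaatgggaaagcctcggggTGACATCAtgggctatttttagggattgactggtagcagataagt
Junb, chr8:84978749-84978948, minus strand: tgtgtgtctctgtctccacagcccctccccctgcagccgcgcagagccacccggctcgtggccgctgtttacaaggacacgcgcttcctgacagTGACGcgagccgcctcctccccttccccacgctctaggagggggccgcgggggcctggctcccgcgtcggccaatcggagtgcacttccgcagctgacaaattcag
Jund, chr8:70697539-70697738, plus strand: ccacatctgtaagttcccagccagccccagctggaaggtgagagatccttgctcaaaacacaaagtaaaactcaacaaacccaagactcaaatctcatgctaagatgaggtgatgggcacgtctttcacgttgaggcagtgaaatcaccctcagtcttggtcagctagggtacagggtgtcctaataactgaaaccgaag
Dusp1, chr17:26508473-26508672, minus strand: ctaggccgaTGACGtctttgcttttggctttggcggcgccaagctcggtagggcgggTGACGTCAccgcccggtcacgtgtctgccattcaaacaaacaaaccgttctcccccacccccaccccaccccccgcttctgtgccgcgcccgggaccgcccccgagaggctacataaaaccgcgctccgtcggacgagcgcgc
Atf3, chr1:191183334-191183533, minus strand: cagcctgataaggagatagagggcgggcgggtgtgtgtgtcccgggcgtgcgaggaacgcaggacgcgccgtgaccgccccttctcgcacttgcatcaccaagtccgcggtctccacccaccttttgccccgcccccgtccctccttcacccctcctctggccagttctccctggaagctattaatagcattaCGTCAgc
Motifs were searched on both strands and over the 250 bases before each start. They were the core TGACG of sites for CREB and ATF proteins and its 8-base form TGACNTCA. The others were the 7-base AP-1 site TGANTCA, the EGR site GCGNGGGCG, and the CArG box of serum response factor, given by its name. Other forms of AP-1 sites were not searched as such, so a window without TGANTCA is not shown to lack AP-1 sites. A match of TGACNTCA can contain TGACG. Of the 10 genes 8 had a window, 7 of them with a single start there. Of these 7, 5 held TGACG, which 17.8% of all 32851 windows hold. The 5 were Fos, Fosb, Junb, Atf3 and Dusp1. The 8-base form was in Jun, as TGACATCA at 45 to 38 bases before the start, and in Dusp1, as TGACGTCA at 143 to 136 bases before it, against 7.49% of all windows. The EGR site was in Fosb, against 4.7% of windows, while 0 of the 7 held TGANTCA, against 6.75%, or a CArG box, against 1.47%. Jund held none of the motifs in its window. Egr2, with several starts, held CArG boxes and TGACG in some of its windows. The core TGACG was present in genes that varied between arrays and in Atf3, which varied little but stood below the median level. A link between these motifs and the levels was not tested.

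Fos, the AP-1 subunit that pairs with JUN proteins, stood at log2 levels of 6.46, 7.12 and 8.00 on CTCFcKO replicates 1, 2 and 3, against 7.79, 8.62 and 5.87 on WT replicates 1, 2 and 3. WT replicate 2 lay above and WT replicate 3 below all CTCFcKO arrays, and WT replicate 1 lay among them, so the groups overlapped. The log2 difference, CTCFcKO minus WT, was -0.23 (SE 0.64, 95% confidence interval -1.69 to 1.22, limma adjusted p = 0.957), while WT replicates 2 and 3 alone were 6.71-fold apart. Fosb, a close relative of Fos, had 6.50, 6.74 and 7.24 in CTCFcKO and 6.90, 8.04 and 5.99 in WT. Its CTCFcKO values all lay between the lowest and the highest WT array, and its difference was -0.15 (SE 0.44, limma adjusted p = 0.959).

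Jun, the subunit with which FOS forms its main AP-1 dimer, had log2 levels of 7.65, 8.17 and 8.77 in CTCFcKO, against 8.12, 9.82 and 7.69 in WT. WT replicate 2 stood above the other 5 arrays, and WT replicates 1 and 3 lay within the CTCFcKO range. The difference was -0.35 (SE 0.50, limma adjusted p = 0.913). Junb, a JUN relative that restrains proliferation of blood stem cells in mice, had 7.87, 7.55 and 8.25 in CTCFcKO, against 8.47, 8.57 and 8.01 in WT. Its groups overlapped in 1 place, where CTCFcKO replicate 3 exceeded WT replicate 3. Of the 10 genes Junb had the smallest unadjusted p, with a difference of -0.46 (SE 0.20, 95% confidence interval -0.92 to 0.008, limma unadjusted p = 0.0532, limma adjusted p = 0.619). Jund, a more steadily expressed JUN, had 7.39, 7.26 and 7.74 in CTCFcKO, against 7.81, 8.57 and 7.36 in WT. WT replicate 3 fell within the CTCFcKO range. The difference was -0.45 (SE 0.28, limma adjusted p = 0.737), and a second, dimmer probe set of Jund gave -0.45 as well.

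Egr1, a zinc finger factor that promotes quiescence and marrow retention of mouse blood stem cells, had log2 levels of 6.52, 6.63 and 8.13 in CTCFcKO, against 7.62, 8.21 and 5.95 in WT. CTCFcKO replicate 3 and WT replicate 2 were the highest arrays of their groups at similar levels, WT replicate 3 was the lowest of all, and the groups overlapped. The difference was -0.16 (SE 0.59, limma adjusted p = 0.970). Its relative Egr2, a regulator of nerve myelination and lymphocyte responses, had 5.82, 5.90 and 5.86 in CTCFcKO, against 5.86, 5.98 and 5.85 in WT. Egr2 was flat, at a level below the median of all genes' means of 6.29, where probe set summaries are compressed. Its difference was -0.03 (SE 0.10, limma adjusted p = 0.960).

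Dusp1, the MAP kinase phosphatase, had log2 levels of 7.63, 7.51 and 8.47 in CTCFcKO, against 7.80, 9.06 and 7.15 in WT. WT replicate 2 was the highest array and WT replicate 3 the lowest, with all CTCFcKO arrays between them. The difference was -0.13 (SE 0.44, limma adjusted p = 0.969). Ier2, a small nuclear protein gene induced by growth factors, had 6.55, 6.85 and 6.89 in CTCFcKO, against 7.08, 7.41 and 6.60 in WT. WT replicate 3 again lay within the CTCFcKO range and the other WT arrays above it, for a difference of -0.27 (SE 0.20, limma adjusted p = 0.797). Atf3, a stress-induced repressor of the ATF family, had 6.09, 6.19 and 6.19 in CTCFcKO, against 5.96, 6.15 and 6.18 in WT. Like Egr2 it was dim and flat, with a difference of 0.06 (SE 0.11, limma adjusted p = 0.927).

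**Figure D1:**
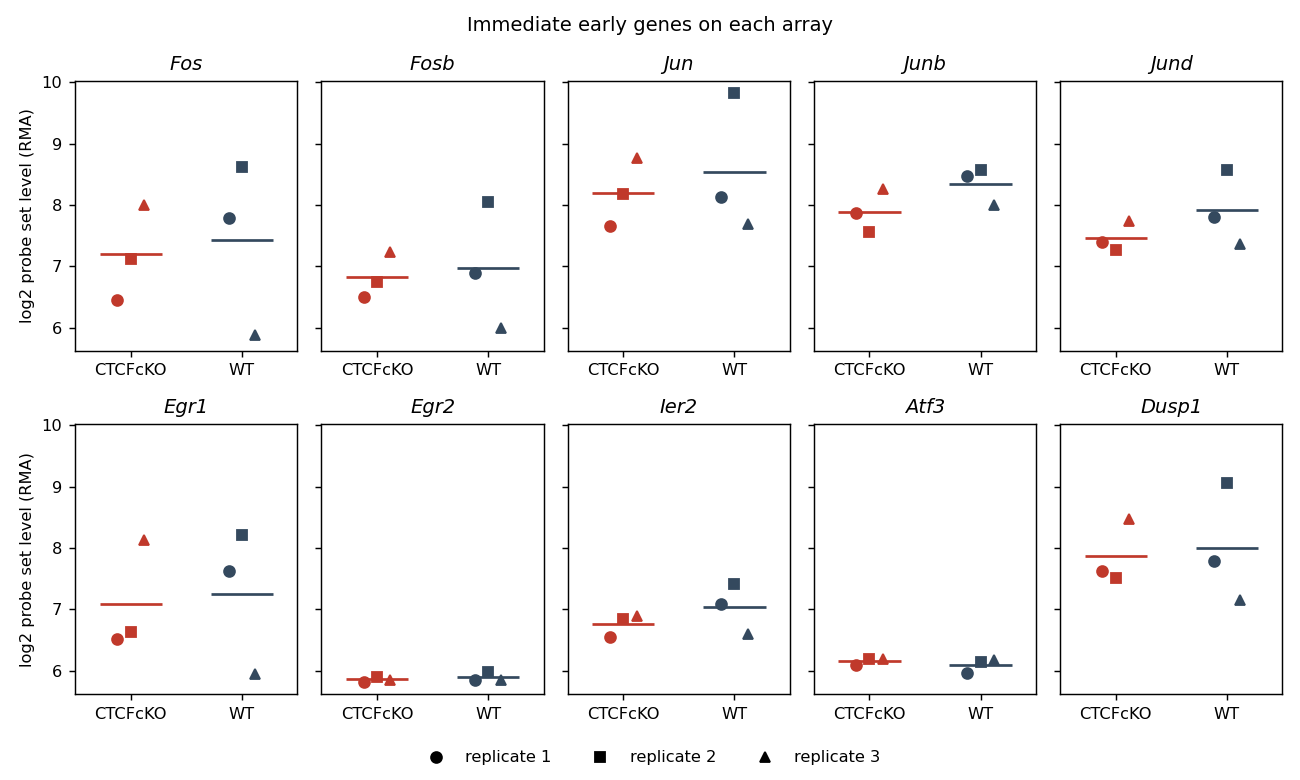
Log2 probe set levels (y axis) of the 10 genes on each array, CTCFcKO left and WT right in every panel, with symbols for replicate numbers and a line at the mean of 3 arrays. WT replicate 2 was the highest array in 9 of the 10 panels, and Egr2 and Atf3 were flat.

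None of the 10 genes passed the test between the groups. By limma with Benjamini-Hochberg adjustment over all genes 0 of 10 were called, against a background of 0.0721% of genes (16 of 22180), with 0.0271% higher and 0.0451% lower in CTCFcKO. A count of 0 of 10 is near that background. At an unadjusted limma p under 0.05 the count was also 0 of 10, against 8.11% of all genes, of which 5.03% were higher and 3.08% lower. That unadjusted count was 1 of 10 with trend and robust settings, with further quantile normalization and with centring on brighter genes. Over all 22180 genes these settings gave 1822, 1790 and 1789. The groups overlapped for all 10, whereas they did not overlap for 13.3% of all genes. Exact two-sided permutation p-values of the 10 lay between 0.2 and 0.9, where 0.1 is the smallest that 3 arrays against 3 can give. Of the 10 differences 9 were negative, against 45.3% of all genes, and their median was -0.20, against 0.02 over all genes. The genes share the 6 arrays and their order on them, so the 9 signs are not independent of each other. The intervals are wide for the variable genes: for Fos the data leave room for a level in CTCFcKO lower by 1.69 or higher by 1.22 on the log2 scale. The limma p-values rest on the spread between these samples, which the labels call biological replicates, drawn toward the spread typical of all genes. The SEs and intervals are likewise moderated: for Fos they are narrower, and for Egr2 wider, than the gene's own spread would give.

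The direction of the median rested on single arrays. It was 0.19 without WT replicate 2, with 3 of 10 differences negative, and -0.64 without WT replicate 3, with 9 of 10 negative. It was -0.51 without CTCFcKO replicate 3 and -0.01 without CTCFcKO replicate 1. Weighting the arrays by their estimated quality gave 0.03, with 5 of 10 negative. Fos moved between -1.01 and 0.36 with 1 array left out, Fosb between -0.64 and 0.38, Jun between -0.77 and 0.29, Egr1 between -0.82 and 0.31, and Dusp1 between -0.56 and 0.40. Junb, Jund and Ier2 kept a negative difference in all 6 of these fits, Junb between -0.64 and -0.29, Jund between -0.73 and -0.12 and Ier2 between -0.49 and -0.08. Without WT replicate 3, 4 of the 10 genes had an unadjusted limma p under 0.05, as did 1 without CTCFcKO replicate 3, and 0 of 10 passed after adjustment in any of the 6 fits.

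**Figure D2:**
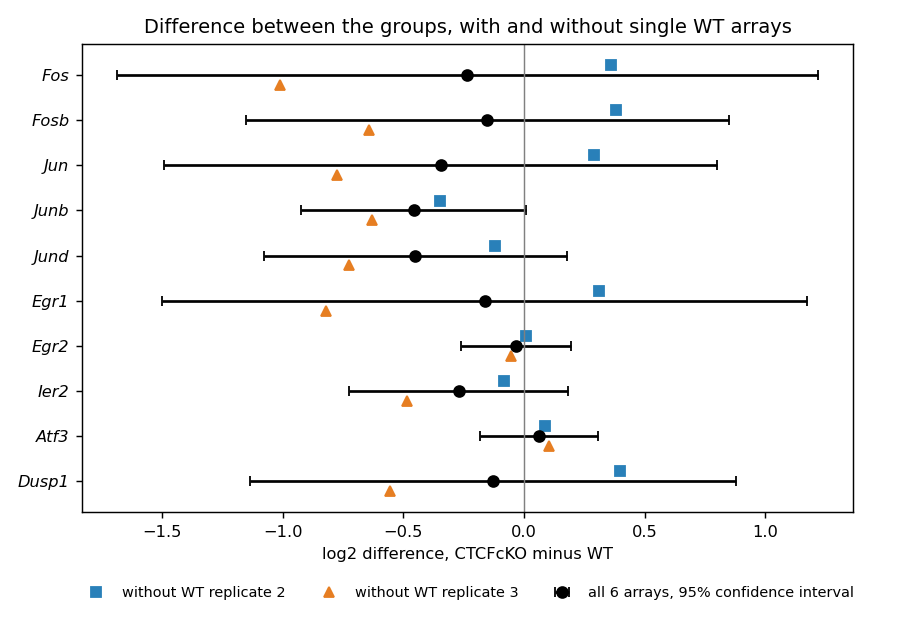
Log2 differences, CTCFcKO minus WT (x axis), of the 10 genes with 95% confidence intervals from all 6 arrays (black), and the same differences without WT replicate 2 (blue squares) or without WT replicate 3 (orange triangles). The interval of every gene includes 0, and for Fos the value is 0.36 without WT replicate 2 and -1.01 without WT replicate 3.

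Several of these genes varied widely between arrays of the same group. The SD between the arrays of a group, pooled over both groups on the log2 scale, was 1.14 for Fos, which ranked 13 of 22180 genes, and 1.05 for Egr1, which ranked 19. Jun, at 0.89, ranked 32, Dusp1, at 0.78, ranked 58, and Fosb, at 0.77, ranked 61. These 5 genes were thus among the 100 genes with the largest spread within groups. Jund, at 0.47, ranked 398, and also lay above the 95th percentile of 0.36 over all genes. Junb (0.33) and Ier2 (0.32) ranked 1596 and 1769. Atf3 (0.09) and Egr2 (0.06) lay below the median of 0.16. In CTCFcKO the range over 3 arrays was 2.92-fold for Fos and 3.06-fold for Egr1, and in WT it was 6.71-fold for Fos, 4.79-fold for Egr1, 4.38-fold for Jun, 4.13-fold for Fosb and 3.76-fold for Dusp1. Large spread was also found in other lists: 7 of 12 neutrophil and monocyte markers and 4 of 8 B and plasma cell markers lay above the 95th percentile, with Ngp at 0.92, Cd79a at 0.89, S100a8 at 0.86 and Camp at 0.85, against 6 of the 10 immediate early genes. These are descriptions with no test, since the genes were chosen with earlier results of these data known.

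**Figure D3:**
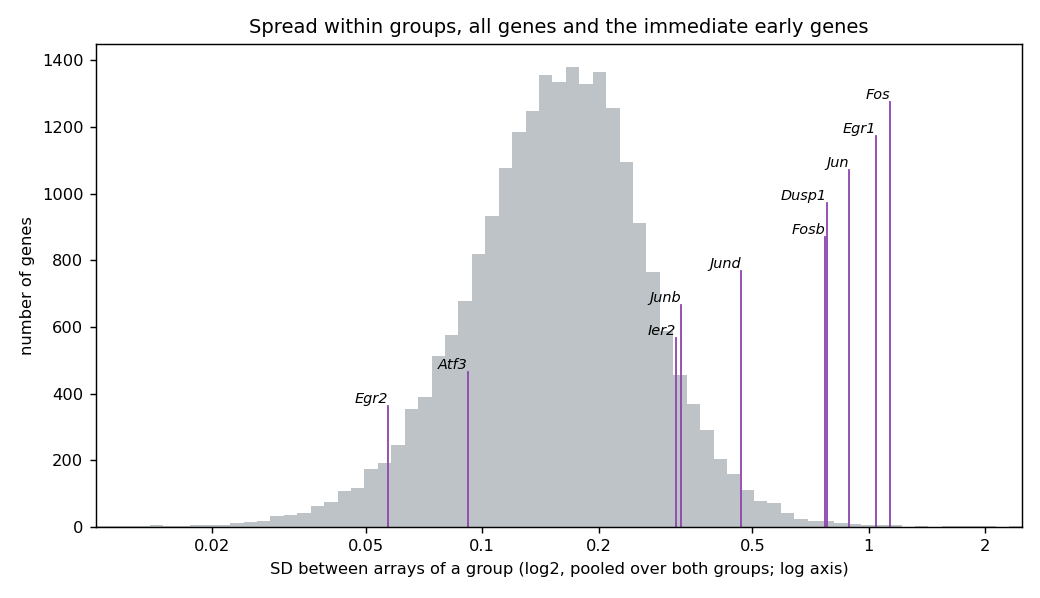
Histogram of the SD between arrays of a group (x axis, log2 units on a log axis) for all 22180 genes, with lines at the 10 immediate early genes, whose heights only separate the names. Fos, Egr1, Jun, Dusp1 and Fosb lie in the far right tail, and Atf3 and Egr2 lie left of the median of 0.16.

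The spread had the same order of arrays in most of the genes. WT replicate 2 was the highest of all 6 arrays for 9 of the 10, where 16.2% of all genes had their highest value on that array. WT replicate 3 was the lowest WT array for 9 of the 10, against 29% of all genes. The full order of WT replicate 2 over WT replicate 1 over WT replicate 3 held for 9 of the 10, against 14.8% of all genes, with Atf3 the exception. These 9 include the dim and flat Egr2, whose WT replicates 1 and 3 were nearly equal, at 5.856 and 5.851. WT replicate 2 exceeded WT replicate 3 by at least 2-fold for 6 of the 10, namely Fos, Fosb, Jun, Jund, Egr1 and Dusp1, against 0.334% of all genes. Within CTCFcKO, replicate 3 was the highest array for 9 of the 10, against 31.4% of all genes, and Egr2 was the exception. The median level of all probe sets was 6.07 on WT replicate 2, on CTCFcKO replicate 3 and also on WT replicate 1.

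The profile of the 10 genes, taken as the median over them of each level minus that gene's own mean, was -0.33, -0.19 and 0.23 on CTCFcKO replicates 1, 2 and 3 and 0.06, 0.96 and -0.50 on WT replicates 1, 2 and 3. Distance to it was taken as the mean absolute log2 distance over the 6 arrays. Among genes outside the 10 and above the median level, the nearest 8 were Mir1962 (0.125), Ppp1r15a (0.128), H2aw (0.150), Rhob (0.159), Adamts10 (0.164), Ogt (0.165), Kcnq1ot1 (0.166) and Leng8 (0.166). Of the 10 genes themselves only Jund (0.127) and Fosb (0.144) were as near. The rest lay farther away than these 8, from Dusp1 (0.199) to Egr1 (0.431) and Fos (0.450). Ppp1r15a, a phosphatase subunit that restores translation after stress, and Rhob, a growth factor-induced small GTPase, also stand in the list of other immediate early genes used below. Ogt adds the sugar GlcNAc to nuclear and cytosolic proteins, Kcnq1ot1 is an imprinted long non-coding RNA, and Adamts10 encodes a secreted metalloprotease. Mir1962 is named from its probe set's annotation, which does not say whether the mature miRNA was measured. None of the 8 was called, and Ppp1r15a had the largest difference of them at -0.45 (SE 0.27, limma adjusted p = 0.723). That difference was -0.12 without WT replicate 2 and -0.68 without WT replicate 3. Its levels were 7.13, 7.12 and 7.57 in CTCFcKO and 7.52, 8.38 and 7.27 in WT.

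**Figure D4:**
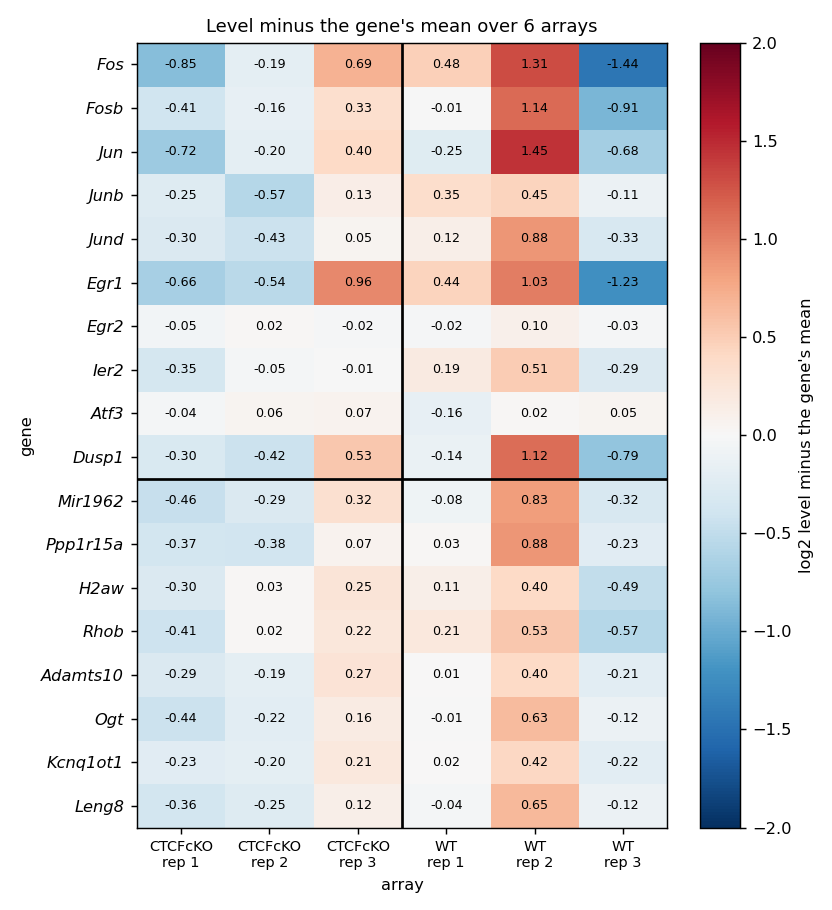
Heat map of log2 level minus the gene's mean over 6 arrays (colour and printed value) for the 10 immediate early genes (above the line) and the 8 genes with the nearest profiles (below it), with CTCFcKO arrays left and WT arrays right. The WT replicate 2 column is positive in every row, and that of WT replicate 3 is negative in all but Atf3.

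Of 31 other immediate early genes measured, 0 were called in either direction. At an unadjusted limma p under 0.05, 1 was higher and 1 lower, and the list's median difference was -0.07, against 0.02 over all genes. Myc, the growth and proliferation regulator, had levels of 10.60, 10.30 and 10.84 in CTCFcKO and 11.18, 11.15 and 10.90 in WT. All CTCFcKO arrays lay below all WT arrays, with a difference of -0.50 (SE 0.15, limma adjusted p = 0.459). Klf10, a zinc finger gene induced by TGF-beta, had 8.38, 7.96 and 8.23 in CTCFcKO and 7.94, 7.50 and 7.77 in WT. Its groups did not overlap either, in the other direction, with a difference of 0.45 (SE 0.15, limma adjusted p = 0.522). The groups did not overlap for 4 of these 31, a share near the 13.3% of all genes.

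Zfp36, an RNA-binding protein that destabilises cytokine mRNAs, followed the order of the 10 genes. It had levels of 8.79, 8.80 and 9.70 in CTCFcKO and 9.79, 10.52 and 8.95 in WT, and differed by -0.66 (SE 0.38, limma adjusted p = 0.718). The difference was -0.27 without WT replicate 2 and -1.06 without WT replicate 3. The spread within groups lay above the 95th percentile of all genes for 9 of the 31: Nr4a1, Zfp36, Btg2, Gadd45b, Rhob, Ptgs2, Per1, Plk2 and Ppp1r15a, of which those beyond Zfp36, Rhob and Ppp1r15a are named after their values were seen. By construction 5% of all genes lie there. Not all shared the order: WT replicate 2 was the highest array for 13 of the 31, and Nr4a1, an orphan nuclear receptor, was highest on CTCFcKO replicate 3 (8.41 there and 8.15 on WT replicate 2, against 7.25 to 7.33 on the other 4 arrays).

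By median spread the partners and regulators of these factors were steadier. Of the 7 other AP-1 dimer partners measured, 0 were called and 0 had an unadjusted limma p under 0.05, with Batf, a lymphoid AP-1 partner, at 0.11 (SE 0.12), Atf2 at 0.09 (SE 0.10), Jdp2, a repressor of AP-1, at -0.09 (SE 0.14) and Atf7 at -0.08 (SE 0.12). Of the 4 remaining EGR genes and NAB corepressors, which bind EGR proteins and damp them, 0 were called, and Nab2 differed by 0.09 (SE 0.10) and Nab1 by -0.07 (SE 0.10). The median SD within groups was 0.13 over the AP-1 partners and 0.07 over the EGR and NAB genes, against 0.62 over the 10 immediate early genes and 0.16 over all genes. Egr3 (0.29, highest on WT replicate 2), Batf2 (0.23) and Jdp2 (0.19) lay above the median of all genes. Egr3, Egr4 and Batf3 had group means below the 6.29 median of gene means, where probe set summaries are compressed. Egr3, Egr4, Batf2 and Batf3 are named after their values were seen.

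Among 13 MAP kinase phosphatases and feedback inhibitors 0 were called, and 1, Dusp6, was higher at an unadjusted limma p under 0.05. Dusp6, a cytoplasmic MAP kinase phosphatase, had levels of 8.63, 8.96 and 8.71 in CTCFcKO and 8.41, 8.51 and 8.16 in WT, without overlap, and differed by 0.41 (SE 0.14, limma adjusted p = 0.508). Averaging over all probe sets of Dusp6 gave 0.13 (limma adjusted p = 0.840). Its relative Dusp2 differed by -0.34 (SE 0.19, limma adjusted p = 0.702), with WT replicate 2 highest at 8.62, and by -0.13 without that array. The feedback inhibitors of growth factor signalling Spry1 and Spred2 differed by -0.27 (SE 0.13) and 0.23 (SE 0.12). Among 15 measured kinases and factors upstream of immediate early genes 0 were called, 1, Mapk14, was higher at an unadjusted limma p under 0.05, and the median was 0.07. The p38 kinase Mapk14 differed by 0.27 (SE 0.11, limma adjusted p = 0.600), Map2k1, a MAP kinase kinase, by 0.16 (SE 0.12), the ribosomal S6 kinase Rps6ka3 by 0.14 (SE 0.19) and Mapk8, which encodes JNK1, by 0.10 (SE 0.10).

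Heat shock and chaperone genes, which handling can also raise, had another order of arrays as a list. The median of 11 of them, each relative to its own mean, was -0.12, 0.14 and 0.09 on CTCFcKO replicates 1, 2 and 3 and -0.22, 0.01 and 0.00 on WT replicates 1, 2 and 3. WT replicate 2 was the highest array for 1 of the 11, the inducible HSP70 gene Hspa1a, named after its values were seen. Hspa1a had levels of 5.41, 5.52 and 5.72 in CTCFcKO and 5.64, 6.35 and 5.07 in WT, with CTCFcKO replicate 3 highest in its group and WT replicate 3 lowest of all, as for Fos. Its near-identical copy Hspa1b, whose signal the probes may not separate from it, had another order, at 6.02, 6.18 and 5.72 in CTCFcKO and 5.04, 5.79 and 5.03 in WT, with CTCFcKO replicate 3 lowest in its group. Hspa1b had the largest difference of the list, 0.69 (SE 0.22, limma adjusted p = 0.476), and was its 1 gene with an unadjusted limma p under 0.05. Hspa1a and Hspa1b had group means below the 6.29 median of gene means, where probe set summaries are compressed. None of the 11 was called, and the list's median difference was 0.06. Hspd1, a mitochondrial chaperonin, differed by 0.24 (SE 0.18), its partner Hspe1 by 0.12 (SE 0.18), the HSP70 partner Dnajb1 by 0.17 (SE 0.10) and Hsp90aa1 by 0.06 (SE 0.16).

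Markers of other cells moved between the same arrays. The 12 neutrophil and monocyte markers had their lowest medians on WT replicate 2 (-0.36) and CTCFcKO replicate 3 (-0.36), where the 10 genes were highest in their groups, and 0.04 and -0.01 on the other CTCFcKO arrays and 0.32 and 0.22 on the other WT arrays. Lyz2, a lysozyme, stood at 10.24, 10.07 and 9.88 in CTCFcKO and 10.81, 9.71 and 10.46 in WT, and Ngp, a neutrophil granule gene, at 8.37, 8.01 and 7.46 in CTCFcKO and 11.49, 9.08 and 10.59 in WT. The 8 B and plasma cell markers had medians of -0.03, -0.04 and -0.75 in CTCFcKO and 0.65, 0.59 and -0.24 in WT, with the antibody heavy chain gene Ighm at 13.26, 13.59 and 12.78 in CTCFcKO and 13.97, 14.04 and 13.54 in WT. Jchain, the joining chain gene, stood at 12.04, 11.97 and 10.81 in CTCFcKO and 12.94, 12.72 and 11.84 in WT. Not all markers had this order: Itgam, an integrin of myeloid cells, stood at 7.48, 7.59 and 7.87 in CTCFcKO and 7.78, 8.06 and 7.78 in WT, highest in each group on the arrays where the 10 genes were highest. Fcgr3, an Fc receptor, and Cebpe, a granulocyte transcription factor, had positive differences of 0.59 and 0.52, and these 3 are named after their values were seen. Of the 12 neutrophil and monocyte markers 0 were called, with 1 higher and 4 lower at an unadjusted limma p under 0.05, and of the 8 B and plasma cell markers 0 were called, with 6 lower, against 5.03% higher and 3.08% lower over all genes. Their part in the levels of the immediate early genes was not tested. In RNA from bulk cells a smaller share of cells that express a gene and less RNA per cell cannot be told apart.

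**Figure D5:**
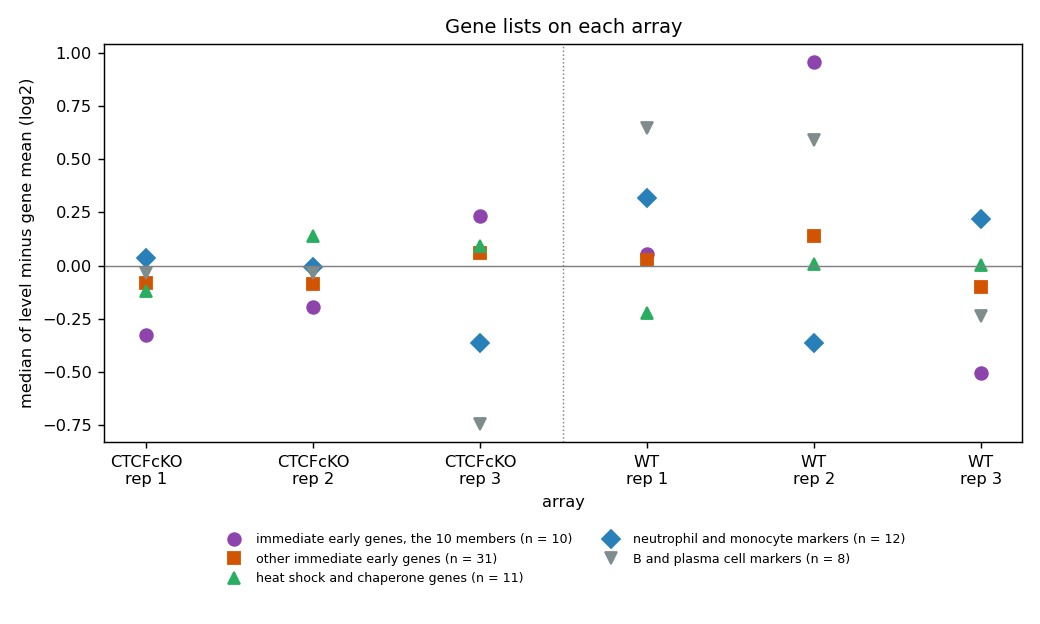
Median over each gene list (n, measured genes) of log2 level minus the gene's own mean (y axis), on the 3 CTCFcKO and then the 3 WT arrays (x axis). The 10 immediate early genes stand at 0.96 on WT replicate 2 and -0.50 on WT replicate 3, and the neutrophil and monocyte markers at -0.36 on WT replicate 2.

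The LSK marker list had medians of -0.12, -0.07 and 0.03 in CTCFcKO and 0.01, 0.10 and -0.04 in WT. Within each group that is the order of the 10 genes, over a smaller range. WT replicate 2 was the highest array for 5 of its 10 measured genes, against 16.2% of all genes. The other marker lists had medians between -0.58 and 0.57 on the 6 arrays, both ends in the mast cell and basophil list, which was lowest on WT replicate 2. In that list 1 of 6 genes, the histamine-forming enzyme gene Hdc, was called higher in CTCFcKO (log2 difference 2.32, limma adjusted p = 0.0309), chosen for mention after its value was seen. Its adjusted p was 0.0402 without CTCFcKO replicate 2 and lay between 0.0564 and 0.171 without any other single array, and it was 0.0959 with the replicate block, and the lowest difference in these fits was 2.02. Its brightest genes Cpa3 and Mcpt8 differed by 0.45 and 1.11 (limma adjusted p = 0.753 and adjusted p = 0.0708). The brightest markers of T and NK cells, Nkg7 and Lat, differed by 0.68 and 0.12, those of erythroid cells, Car1 and Ermap, by 0.56 and -0.09, those of megakaryocytes, Gp9 and Itga2b, by 0.31 and 0.13, and those of endothelial and stromal cells, Emcn and Pecam1, by -0.30 and -0.09, with limma adjusted p-values from 0.429 to 0.958. As whole lists, in the same order, these markers had median differences of -0.05, -0.06, 0.18 and -0.09. Of the 8 T and NK cell markers 5 had a negative difference, unlike Nkg7 and Lat. In that list Cd3e, Cd3d, Cd3g, Gzma and Klrb1c had group means below the 6.29 median of gene means, unlike Ccl5. So did Cdh5, Cxcl12, Lepr and Kdr in the endothelial and stromal list, unlike Col1a1. The 2 brightest genes were thus not typical of these lists, whose other genes are named after their values were seen. Which cells gave the signals of the brightest genes was not tested. Kit, which encodes c-Kit, stood at 10.13, 10.12 and 10.21 in CTCFcKO and 10.26, 10.65 and 10.22 in WT, and Cd34 and Flt3 differed by -0.02 and -0.42. Kit thus stood well over the 6.29 median of gene means, with all CTCFcKO arrays just below all WT arrays (difference -0.22, limma adjusted p = 0.727), and Ly6a, which encodes Sca-1, was not analysed here. Ctcf itself had levels of 7.58, 7.78 and 7.86 in CTCFcKO, all below 8.35, 8.59 and 8.73 in WT, with a difference of -0.82 (SE 0.13, limma adjusted p = 0.104). The labels do not give the deleted exons, so it is not known whether this probe set covers them, and its difference is no direct measure of the deletion.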

How the data were processed

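Gene expression was measured on 6 arrays of sorted LSK cells, 3 CTCFcKO and 3 WT. The authors deposited log2 probe set levels, made with RMA and oligo, an R package, as listed per the submitters' processing notes. That method removes background, equalises the distributions of the arrays and combines probes, and it understates differences of dim genes. The sources used here give no version, summary level, annotation release or genome build for it.

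Of 41345 probe sets, 23521 had 1 symbol in GEO's platform annotation, 1814 several and 16010 none here; those with 1 symbol gave 22180 genes by the brightest mean over 6 arrays. No low-value filter was applied. Among the 10 genes, Jund had 2 probe sets. All 10 matched RefSeq by Entrez identifier. Differences, CTCFcKO minus WT, were fitted with limma 3.58.1 under R 4.3.3 (lmFit and eBayes, with no term but the group) and called where p, after Benjamini-Hochberg adjustment over the 22180 genes, was under 0.05. The fit was tested on simulated data. With 3 arrays a group, array number sets the precision. The alternatives were trend and robust settings, array weights, brighter genes alone, further quantile normalization, centring on brighter genes, probe set means, a replicate block and each array left out. The members and lists were chosen with earlier results of these data known. The named genes were the 10 members, Ctcf, up to 4 bright genes of each of 6 lists with the largest differences, the 8 nearest profiles, and Kit and the 2 brightest genes of each of 8 marker lists. As each group has 3 arrays, outlying arrays were not searched for.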

Additional observations from a re-analysis of the deposited data

How the results depend on the processing

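The count of called genes over the whole table, 16 by limma, was 25 with trend and robust settings and 7 with the replicate number as a replicate block, between 0 (without CTCFcKO replicate 1, with 1725 genes at an unadjusted limma p under 0.05) and 8 with 1 array left out, and 1799 at an unadjusted p under 0.05. None of the 10 immediate early genes passed an adjusted threshold under any setting run. Same-numbered arrays had correlations of deviations of 0.29, 0.02 and -0.14. With 3 arrays a group these cannot show whether such arrays were handled together, and the block changed no call of the 10 genes. With 1 array left out the members' median lay between -0.64 and 0.19, and with array weights it was 0.0265. Array weights also gave positive values for Fos (0.10), Fosb (0.0846), Egr1 (0.17), Dusp1 (0.13), H2aw (0.10), Rhob (0.0164) and Cd34 (0.0039), and a further quantile normalization for Egr2 (0.0014) and H2aw (0.0072). The cause was not tested. With 1 array left out the sign also changed for Fos (-1.01 to 0.36), Fosb (-0.64 to 0.38), Jun (-0.77 to 0.29), Egr1 (-0.82 to 0.31), Egr2 (-0.0555 to 0.0069), Atf3 (-0.0043 to 0.10), Dusp1 (-0.56 to 0.40), Jdp2 (-0.177 to 0.0328), Rps6ka3 (-0.0527 to 0.277), Hspe1 (-0.0252 to 0.314), Hsp90aa1 (-0.10 to 0.15), Mir1962 (-0.519 to 0.0604), H2aw (-0.26 to 0.18), Rhob (-0.43 to 0.12), Adamts10 (-0.307 to 0.0284), Kcnq1ot1 (-0.290 to 0.0288), Cd34 (-0.0663 to 0.0593), Lat (-0.0126 to 0.265), Car1 (-0.40 to 1.34) and Ermap (-0.36 to 0.13). Over the 10 members 5 of 68 values under other settings and 13 of 60 with an array left out changed sign, and 0 passed the threshold; for the other named genes 4 of 336 and 21 of 288 changed sign. Mcpt8 passed the threshold under 3 other settings (1.06 to 1.11). Of 48 other named genes 35 kept their sign with each array left out, and 22 of these moved by over 1.5 times under at least 1 omission, as did Junb, Jund and Ier2. Levels of Egr2 and Atf3 near or below the median signal limit what could be seen for them.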
